A study of Mus musculus with 19 samples.

Results

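The 10 genes described here encode proteases that cut the extracellular matrix and the proteins that inhibit or dock them: the matrix metalloproteinases *Mmp2*, *Mmp12*, *Mmp14* and *Mmp15*, the tissue inhibitors *Timp1*, *Timp2* and *Timp3*, and *Plau*, *Plaur* and *Plat* of the plasminogen activator system. They were chosen by symbol from the 53558 genes listed in the deposited gene tables. All 10 were among the 13986 genes that passed a filter on low counts. *Mmp12* and *Mmp2* passed it through the targeted tumors, since no sgInert library held more than 1 and 8 counts of them, respectively. *Timp1* and *Plau* reached the level of the filter in some sgInert libraries, but in too few to pass without the targeted tumors.

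The RNA came from tdTomato-positive neoplastic cells sorted from lung tumors of H11LSL-Cas9 mice that also carried R26LSL-tdTomato, 17 weeks after lentiviral Cre delivery to animals aged 6 to 12 weeks of a C57BL/6J:129 mixed background. All groups share the same Cre-activated alleles, Cas9 among them, and differ in the sgRNAs of the virus. Lenti-sgNeo1/sgNT/sgNeo2/Cre, the inert control (sgInert), gave 7 libraries, Lenti-sgCebpa/sgCebpb/sgCebpd/Cre, against 3 C/EBP transcription factors (sgCebpa/b/d), gave 7, and Lenti-sgLkb1/Cre, against the tumor suppressor kinase gene *Lkb1* (symbol *Stk11*), gave 5. The groups answer whether targeting of the C/EBP factors and targeting of *Lkb1* change the same genes. Cas9 acts only in cells that took up the virus, and the edited alleles can differ between tumors. Dead cells and cells bearing CD45, CD31, F4/80 or Ter119 were gated out.

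Libraries held 2760731 to 9944134 counts. *Stk11* stood at 7.53 to 12.5 CPM (the count relative to the library size scaled by TMM) in sgLkb1 and at 14.5 to 26.1 in the other groups. *Cebpa* stood at 71.9 to 125 CPM in sgCebpa/b/d and at 36.0 to 68.8 elsewhere, but small Cas9 edits need not lower a transcript, so its level does not check the label. Epithelial markers summed to 15704 to 30251 CPM in every library. The titles carry an animal number that begins with ZR (4 sgInert libraries) or MT (3 sgInert, 4 sgCebpa/b/d and 3 sgLkb1), or none (sgCebpa/b/d replicates 5, 6 and 7, sgLkb1 replicates 1 and 5). What the prefix stands for is not given in the sources used here. Those last 5 libraries stood apart. Their 22 macrophage markers summed to 256 to 1213 CPM against 18.8 to 82.5 in 13 of the other 14, sgInert replicate 3 being at 350.2, and their endothelial markers to 117 to 310 CPM against 11.9 to 114. All sgLkb1 mice were female, as were 4 of 7 sgCebpa/b/d and 3 of 7 sgInert. The 3 male sgCebpa/b/d libraries are replicates 5, 6 and 7, which lack an animal number. In that group sex and that split cannot be told apart, also where sex is a term in the fit. Some animals gave more than 1 library, so n counts libraries and not animals. Among the numbered titles this concerns 2 sgInert, 3 sgCebpa/b/d and 2 sgLkb1 libraries. Whether any of the 5 libraries without a number share an animal is not given. An alternative fit, in which the libraries of 1 animal were summed, kept each of those 5 apart.

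Matrix metalloproteinases are zinc enzymes made as inactive precursors. *Mmp14* and *Mmp15* encode membrane-type enzymes held at the cell surface, where MMP14 cuts fibrillar collagen and, with TIMP2 as the bridge, activates the secreted gelatinase MMP2. MMP12 is the elastase of macrophages. In the other system uPA (*Plau*), held by its receptor uPAR (*Plaur*), and tPA (*Plat*) turn plasminogen into plasmin, which degrades fibrin and other matrix proteins. Both systems are long studied in lung tumors for their part in invasion.

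Compared as TPM, which divides by transcript length, the inhibitors *Timp3* and *Timp2* stood above all the enzymes, whereas *Timp1* did not. Over the 19 libraries the median was 184 TPM for *Timp3* and 65.7 TPM for *Timp2*, against 12.3 for *Mmp15*, 11.5 for *Mmp14*, 8.56 for *Plaur*, 5.05 for *Plat*, 4.10 for *Timp1*, 1.15 for *Plau*, 0.69 for *Mmp2* and 0 for *Mmp12*. The ranges of *Timp3* (90.8 to 329 TPM) and *Timp2* (33.7 to 96.5) met only at their ends. Those of *Mmp15* (7.03 to 17.0), *Mmp14* (5.23 to 25.3) and *Plaur* (3.49 to 22.3) overlapped along most of their length, so the order among these 3 is not beyond their spread.

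**Figure D1:**
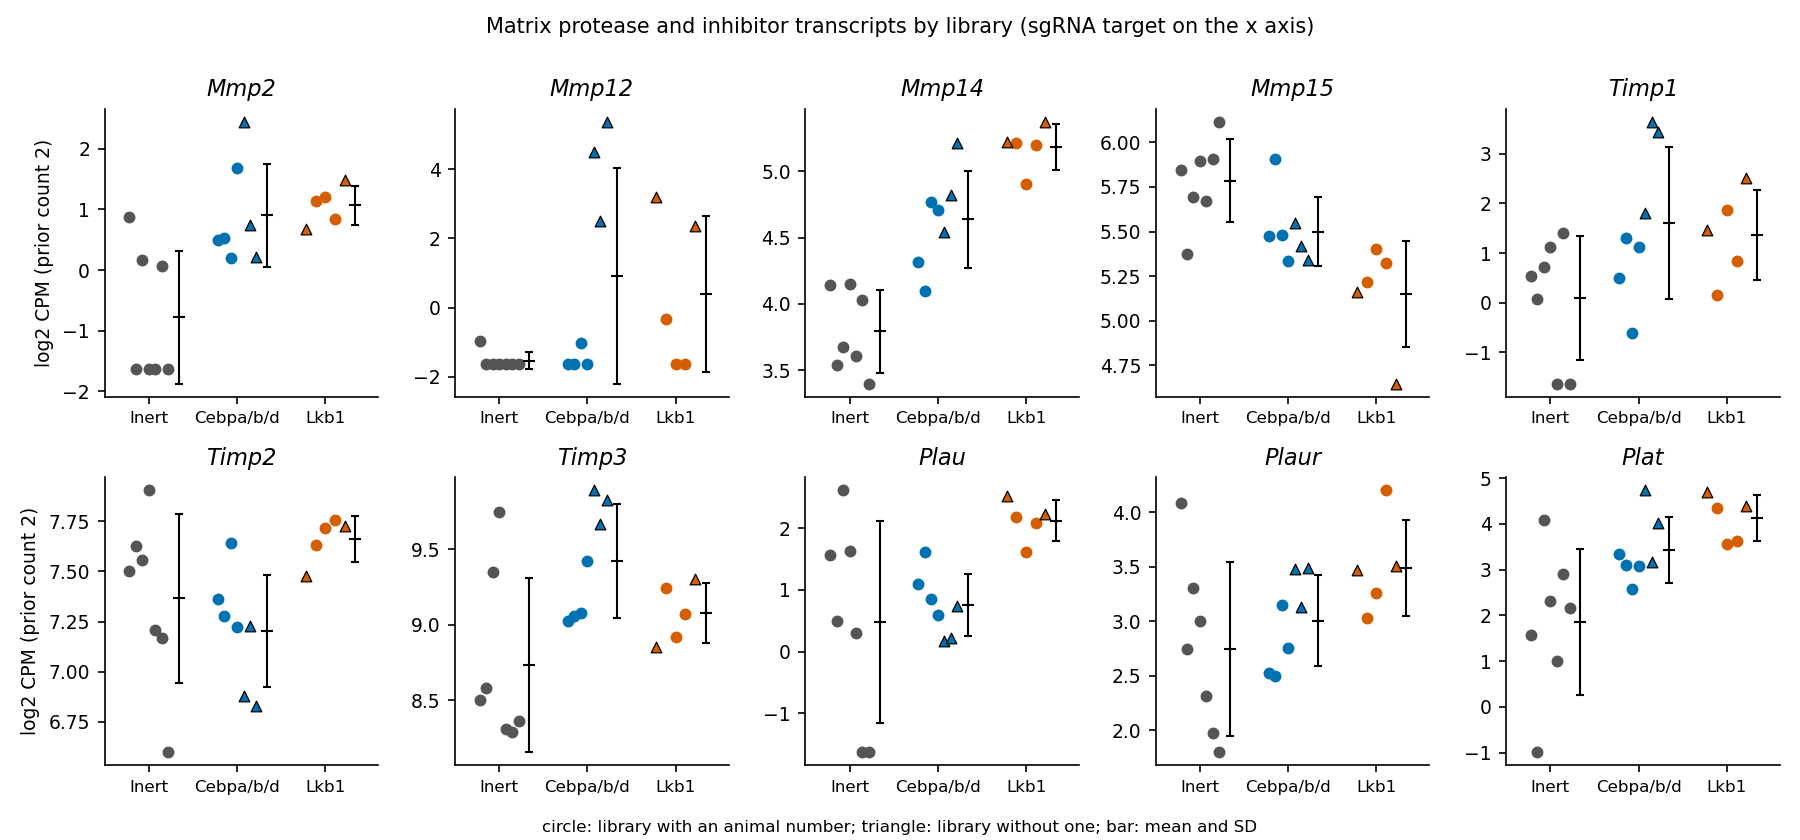
Level of each of the 10 genes in every library, as log2 CPM with a prior count of 2, with the mean and SD of each group beside the points. Circles are libraries whose title has an animal number and triangles those without one. All 5 sgLkb1 libraries lie above all 7 sgInert libraries for *Mmp14*, and *Mmp12* is high in the triangles alone.

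*Mmp14* (chr14:54431612-54445364, plus strand, GRCm38) was higher in both kinds of targeted tumors than in sgInert. Its counts were 92, 62, 47, 75, 92, 89 and 42 in sgInert replicates 1 to 7, then 54, 164, 163, 152, 144, 165 and 220 in sgCebpa/b/d, and 321, 235, 195, 369 and 282 in sgLkb1. Scaled for depth, the level was 3.79 ± 0.31 log2 CPM (SD, n = 7) in sgInert, against 4.64 ± 0.36 (n = 7) in the sgCebpa/b/d and 5.18 ± 0.17 (n = 5) in the sgLkb1 tumors. All 5 sgLkb1 libraries and 6 of 7 sgCebpa/b/d libraries were above every sgInert library. Of the sgCebpa/b/d libraries 6 of 7 were below every sgLkb1 library, and the remaining 1 overlapped with them.

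In edgeR's quasi-likelihood test over 13986 genes, *Mmp14* rose by a log2 fold change of 1.39 in sgLkb1 (SE 0.18, 2.62-fold, adjusted p = 6.08e-05). It rose by 0.87 in sgCebpa/b/d (SE 0.17, 1.83-fold, adjusted p = 0.00148). Between the targeted groups it was lower in sgCebpa/b/d by a log2 difference of -0.52 (95% interval -0.89 to -0.15, adjusted p = 0.0987), which missed the threshold of 0.05. Without sgCebpa/b/d replicate 7 that difference was -0.65 and passed (adjusted p = 0.0243), the only 1 of 19 fits without 1 library to do so. Under 18 alternative settings it ranged from -0.73 to -0.50 and passed in 8. Within the MT libraries alone, from 2 animals per group, the log2 fold changes against sgInert were 1.60 (adjusted p = 0.000433) in sgLkb1 and 0.98 (adjusted p = 0.0094) in sgCebpa/b/d. Without the 5 libraries that lack an animal number they were 1.31 (adjusted p = 0.00112) and 0.69 (adjusted p = 0.0394) in turn.

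The level of *Mmp14* moved with that of fibroblast transcripts. The 14 fibroblast markers summed to 20.3 to 192 CPM in sgInert, with 1 to 4 of them at 0. The sums ran from 77.6 to 315 CPM in sgCebpa/b/d (0 to 2 at 0) and from 114 to 335 CPM in sgLkb1, where none was at 0. Of the 10 markers tested 3 rose in each group (*Col3a1*, *Dcn* and *Postn*). Other markers moved with the groups as well. Of 10 endothelial markers 6 rose in sgCebpa/b/d and 1 in sgLkb1. Of all genes 4.73% and 2.81% were called higher in these groups. The endothelial sums in the numbered sgLkb1 libraries (61.3 to 114 CPM) lay above all of sgInert (11.9 to 55.5 CPM). In sgCebpa/b/d the 4 numbered libraries (22.4 to 61.5 CPM) overlapped with sgInert, and the 3 without a number stood at 213 to 310 CPM. Of 4 mesothelial markers 1, *Msln*, had enough counts to be tested, and it rose in sgLkb1 (log2 fold change 3.17, adjusted p = 0.00493). In the numbered sgLkb1 libraries *Msln* had 42 to 95 counts, whereas *Upk3b*, *Wt1* and *Lrrn4* had 0 to 1. In the sgLkb1 libraries without a number *Lrrn4* had up to 24 counts, and *Upk3b* and *Wt1* at most 2. The part of the endothelial and mesothelial markers in the results was not tested. Over the 19 libraries, on log2 scales, Pearson's r with *Mmp14* was 0.862 (permutation p = 1e-05, the smallest that 100000 resamples can give, adjusted over 30 relations p = 0.0003), and Spearman's rho was 0.811 (permutation p = 0.00011, adjusted p = 0.0033). It was 0.823 without the 2 libraries farthest from the median of the marker sum and 0.893 among the 10 MT libraries. Since both measures differ between the groups, r was also taken within them. It was 0.771 in sgInert (n = 7, exact permutation p = 0.0488) and 0.852 in sgCebpa/b/d (n = 7, exact permutation p = 0.0101), neither past 0.05 after adjustment over 20 such relations (0.163 and 0.152). Without the 2 farthest libraries these were 0.866 and 0.372, so that the relation within sgCebpa/b/d rests on those libraries. With the marker sum as a covariate the log2 fold change of *Mmp14* was 0.85 in sgLkb1 (adjusted p = 0.0484) and 0.35 in sgCebpa/b/d (adjusted p = 0.436). The part of fibroblast RNA in the result was not tested further, and in sorted bulk samples more cells of a type and more RNA per cell cannot be told apart.

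*Mmp15* (chr8:95352268-95375080, plus strand), the other membrane-type enzyme, went the other way. Counts were 303, 226, 194, 254, 392, 331 and 283 in sgInert replicates 1 to 7, then 122, 583, 269, 236, 291, 251 and 240 in sgCebpa/b/d, and 307, 235, 277, 404 and 170 in sgLkb1. The raw counts overlap widely because depth differs, but the level was 5.79 ± 0.23 log2 CPM in sgInert, against 5.50 ± 0.19 for sgCebpa/b/d and 5.15 ± 0.30 for sgLkb1. In sgLkb1 4 of 5 libraries were below every sgInert library, and in sgCebpa/b/d 2 of 7 were.

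*Mmp15* fell by 0.63 on the log2 scale in sgLkb1 (SE 0.14, adjusted p = 0.00996). In sgCebpa/b/d its log2 fold change was -0.29 (95% interval -0.56 to -0.02, adjusted p = 0.18), and the difference between sgCebpa/b/d and sgLkb1 was 0.34 (95% interval 0.05 to 0.64, adjusted p = 0.187). The call in sgLkb1 was lost among the MT libraries (-0.44, adjusted p = 0.221), without the libraries that lack an animal number (-0.48, adjusted p = 0.118), with the fibroblast markers as a covariate (-0.54, adjusted p = 0.169), with the title series as a term (-0.49, adjusted p = 0.129) and on log2 of TPM + 1 (-0.42, adjusted p = 0.152). *Mmp14* and *Mmp15* thus passed the test in opposite directions in the same 5 libraries, as the plot of fold changes shows.

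**Figure D2:**
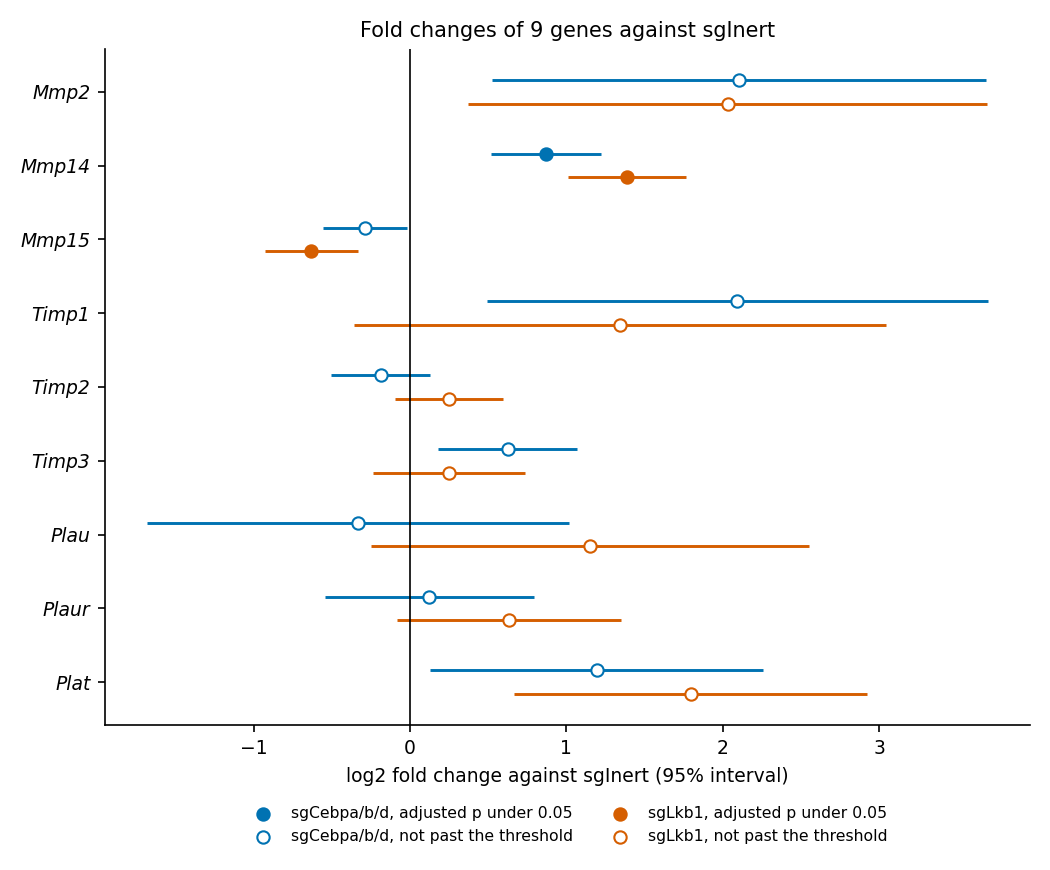
Log2 fold change against sgInert with its 95% interval for 9 of the 10 genes in sgCebpa/b/d (blue) and sgLkb1 (orange). Filled points passed the adjusted p threshold of 0.05: *Mmp14* at 0.87 and 1.39, and *Mmp15* at -0.63. *Mmp12* is left out because its sgInert libraries held 1 count in all.

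The 250 bases upstream of the RefSeq starts of these 2 genes are shown because the genes changed in opposite directions. The letters of AP-1 (TGANTCA), C/EBP (TTNNGCAA), CREB (TGACGTCA) and TATA elements were searched on both strands from 250 bases before to 50 after each start, and a match would stand in capitals. None was found in either window, at chr14:54431348-54431647 and chr8:95352046-95352345 (GRCm38.p6, plus strand).
Mmp14: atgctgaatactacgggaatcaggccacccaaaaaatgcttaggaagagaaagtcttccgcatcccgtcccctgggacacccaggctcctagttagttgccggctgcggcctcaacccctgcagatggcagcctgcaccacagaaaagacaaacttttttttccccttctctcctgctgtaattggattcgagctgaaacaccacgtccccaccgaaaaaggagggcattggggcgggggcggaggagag
Mmp15: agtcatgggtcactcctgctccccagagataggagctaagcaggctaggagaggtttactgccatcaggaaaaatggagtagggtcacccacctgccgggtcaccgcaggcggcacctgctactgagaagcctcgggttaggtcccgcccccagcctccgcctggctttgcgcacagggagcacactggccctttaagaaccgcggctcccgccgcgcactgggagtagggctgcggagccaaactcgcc

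*Mmp12* (chr9:7344381-7369499, plus strand) was nearly absent from sgInert. Its counts were 1 in sgInert replicate 1 and 0 in replicates 2 to 7. The sgCebpa/b/d counts were 0, 0, 1 and 0 in the 4 MT libraries and 139, 32 and 246 in replicates 5, 6 and 7, which have no animal number. In sgLkb1 they were 3, 0 and 0 in the 3 MT libraries and 77 and 33 in replicates 1 and 5, which have none.

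Summed over libraries and set against their depth, the sgCebpa/b/d to sgInert ratio of 418 counts to 1 was 355 (95% interval 63.4 to 14070), and the sgLkb1 ratio of 113 counts to 1 was 106 (95% interval 18.6 to 4222). These intervals cover counting error alone. In edgeR the adjusted p of *Mmp12* was 0.00934 in sgCebpa/b/d, where 3 of 7 libraries lay above all sgInert libraries, and 0.0939 in sgLkb1, where 3 of 5 did. Since *Mmp12* passed the filter on low counts through those libraries, these p-values are given as a description and not as support for a rise. Without sgCebpa/b/d replicate 5, 6 or 7 it no longer passed that filter, and among the MT libraries it was not tested. With the macrophage marker sum as a covariate the adjusted p in sgCebpa/b/d was 0.2, with the title series as a term 0.521, with the fibroblast covariate 0.692 and with limma-voom 0.435. With sex as a term, which in sgCebpa/b/d coincides with the lack of an animal number, the adjusted p in sgLkb1 was 8.41e-05.

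The 5 libraries in which *Mmp12* exceeded 3 counts were also high in many, though not all, of the macrophage transcripts. *Adgre1*, which encodes the F4/80 antigen that the sort gated against, had 10 to 31 counts in the 5 libraries whose title lacks an animal number, and 0 counts in the other 14. *Ptprc* (CD45) had 53 to 370 counts in the former and 0 to 20 in the latter, and *Itgax* (CD11c) 21 to 97 and 0 to 4. In the former, 0 to 3 of the 22 macrophage markers were at 0, and in the latter 6 to 17. Other markers overlapped between these sets, among them *Csf1r*, *Cd68*, *Mertk*, *Cd14* and *Marco*. *Cd14* stood at 11.5 to 30.1 CPM in the former and 10.2 to 34.9 in the latter. *Marco* stood at 1.51 to 5.25 CPM in the former and reached 8.48 in sgInert. sgInert replicate 3, with a marker sum of 350.2 CPM, mostly *Chil3* (237 CPM), held no *Mmp12* count, and sgLkb1 replicate 5, with a lower sum of 256 CPM, held 33. *Chil3* was a large part of the sum in the 5 libraries too. It stood at 815 to 979 CPM, of sums of 1024 to 1213, in those of sgCebpa/b/d. In those of sgLkb1 it stood at 127 to 359 CPM, of sums of 256 to 601. Because the libraries form 2 clusters of macrophage content, no pooled correlation with the marker sum is given. Among the 14 libraries that carry an animal number r was -0.02 (permutation p = 0.939), at levels of 0 to 3 counts. Whether cells of another type account for *Mmp12* was not tested further.

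**Figure D3:**
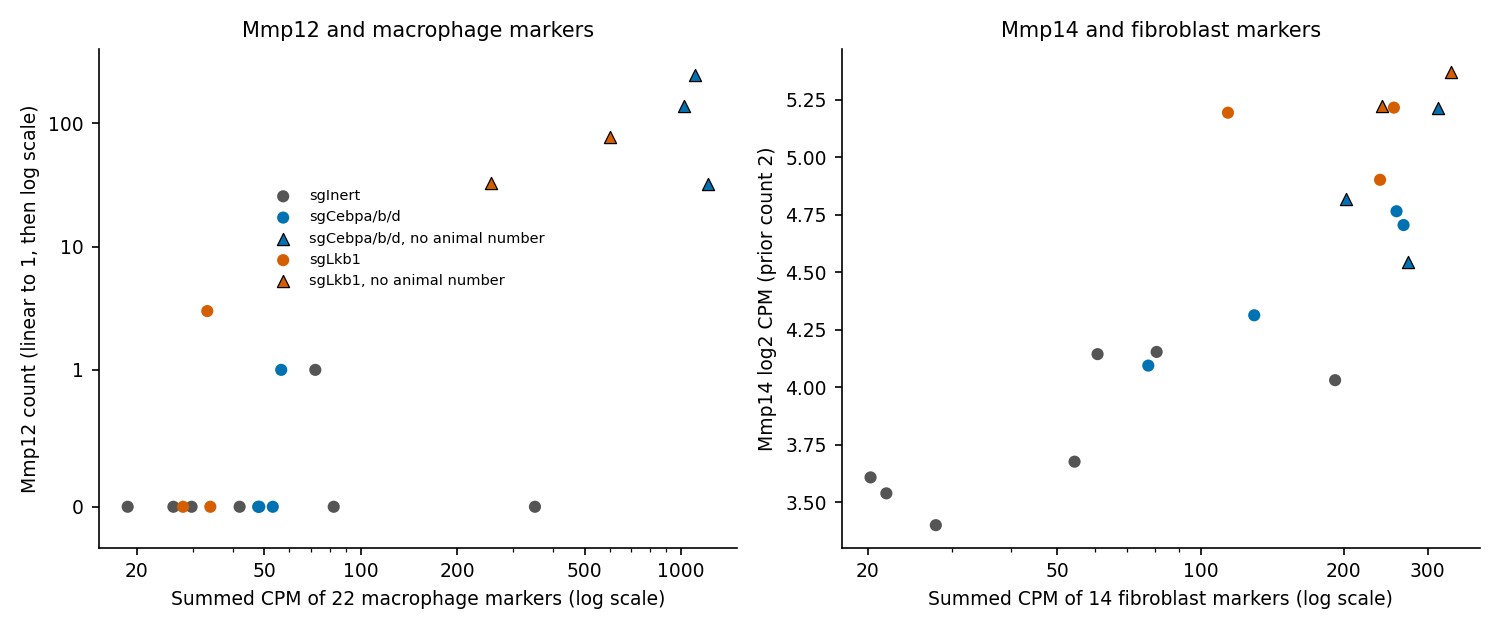
Left, *Mmp12* count against the summed CPM of 22 macrophage markers in each of the 19 libraries. Right, *Mmp14* log2 CPM against the summed CPM of 14 fibroblast markers. *Mmp12* exceeds 3 counts in the 5 libraries without an animal number (triangles) alone, whereas *Mmp14* rises along the fibroblast axis in all groups pooled (r = 0.862).

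*Mmp12* has 2 RefSeq starts. Both upstream stretches are shown because the first carries C/EBP letters and C/EBP factors were the targets. Capitals mark a C/EBP match, TTAAGCAA, beginning 39 bases before the first start (window chr9:7344147-7344446) and an AP-1 match, TGAGTCA, beginning 44 bases before the second (window chr9:7347124-7347423). A match to the TATA letters, TATAAA, beginning at base 5 after the second start lies outside the printed stretch. C/EBP letters occur in 10.8% and AP-1 letters in 7.81% of 32851 RefSeq windows of this length, CREB letters in 1.79% and TATA letters in 13.6%. These matches are descriptions of sequence.
Mmp12 start 1: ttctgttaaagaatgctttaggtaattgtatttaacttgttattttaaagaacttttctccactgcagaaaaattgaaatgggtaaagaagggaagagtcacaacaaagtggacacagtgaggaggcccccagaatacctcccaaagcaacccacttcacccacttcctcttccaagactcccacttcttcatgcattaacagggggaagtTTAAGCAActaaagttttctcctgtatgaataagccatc
Mmp12 start 2: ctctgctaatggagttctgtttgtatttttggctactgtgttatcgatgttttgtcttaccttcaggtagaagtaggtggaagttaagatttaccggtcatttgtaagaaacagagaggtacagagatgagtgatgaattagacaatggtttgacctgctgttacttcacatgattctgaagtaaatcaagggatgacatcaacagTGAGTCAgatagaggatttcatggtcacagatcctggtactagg

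*Mmp12* shares exon sequence with *Mmp1b* on the opposite strand, and the strandedness of the counting is not given in the sources used here. *Mmp1b* had 0 counts in all libraries.

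*Mmp2* (chr8:92827291-92853420, plus strand), the secreted gelatinase, had 8, 0, 3, 0, 0, 4 and 0 counts in sgInert replicates 1 to 7, then 3, 11, 5, 17, 32, 8 and 5 in sgCebpa/b/d, and 11, 12, 13, 15 and 17 in sgLkb1. Every sgLkb1 library had more counts than any sgInert library, but after scaling for depth 3 of 5 lay above all sgInert libraries. Its log2 fold change was 2.03 in sgLkb1 (SE 0.80, adjusted p = 0.153) and 2.10 in sgCebpa/b/d (SE 0.76, adjusted p = 0.0849). The latter passed without sgInert replicate 1, the sgInert library with the most *Mmp2* counts (2.90, adjusted p = 0.0258). Since *Mmp2* passed the filter on low counts through the targeted tumors, its p-values are given as a description and not as support for a rise. Among the MT libraries sgInert held 0 counts, sgCebpa/b/d 3 to 17 and sgLkb1 12 to 15. No test is read from that contrast with a reference at 0. With sex as a term both differences against sgInert passed (adjusted p = 0.0207 for sgCebpa/b/d and 0.026 for sgLkb1). In sgCebpa/b/d sex coincides with the lack of an animal number, so that fit does not separate them. Without the libraries that lack an animal number neither difference passed (adjusted p = 0.325 and 0.301). With RSEM's effective lengths as offsets the fold changes were 1.02 and 0.95 (adjusted p = 0.531 and 0.658 for sgCebpa/b/d and sgLkb1).

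The tissue inhibitors did not pass the test in any of the 3 comparisons. *Timp3* (chr10:86300372-86349506, plus strand), which binds to the matrix itself, had 1920, 2105, 2457, 3697, 2458, 1740 and 1349 counts in sgInert replicates 1 to 7. It had 1437, 5213, 3272, 4057, 5948, 4804 and 5428 in sgCebpa/b/d, and 4012, 3871, 3189, 5478 and 4346 in sgLkb1. On the depth-scaled axis sgInert replicates 3 and 4 (651 and 861 CPM) lay among the targeted tumors and the other 5 (313 to 383 CPM) below all of them. Against sgInert *Timp3* differed by 0.62 on the log2 scale in sgCebpa/b/d (SE 0.22, adjusted p = 0.0705) and 0.25 in sgLkb1 (SE 0.23, adjusted p = 0.642).

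*Timp3* in sgCebpa/b/d passed without sgInert replicate 3 (0.73, adjusted p = 0.0379) or 4 (0.85, adjusted p = 0.00402). It was 0.31 (adjusted p = 0.558) without the libraries that lack an animal number, and 0.16 (adjusted p = 0.871) with the fibroblast covariate. Among the MT libraries, from 2 animals per group, it passed in both groups (0.72, adjusted p = 0.00171 in sgCebpa/b/d, and 0.65, adjusted p = 0.00539 in sgLkb1). Both sgInert libraries in question carry a ZR number. Its exons overlap *Syn3* on the opposite strand, whose counts ranged from 59 to 764.

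*Timp1* (chrX:20870166-20874735, plus strand), an inducible secreted inhibitor, was at 0 to 13 counts in sgInert, with 2 libraries at 0. sgCebpa/b/d had 3, 21, 2 and 11 counts in its MT libraries and 20, 72 and 63 in the other 3, and sgLkb1 had 5 to 37. Against sgInert it differed by 2.09 on the log2 scale for sgCebpa/b/d (SE 0.77, adjusted p = 0.092), which was 0.40 (adjusted p = 0.871) without the libraries that lack an animal number, and by 1.34 for sgLkb1 (SE 0.82, adjusted p = 0.411). Since *Timp1* needed the targeted tumors to pass the filter on low counts, its p-values are given as a description and not as support for a rise. *Timp2* (chr11:118301069-118355740, minus strand), the bridge between MMP14 and the MMP2 precursor, stood at 96.7 to 239 CPM in sgInert, at 113 to 199 with the C/EBP sgRNAs and at 178 to 216 with sgLkb1. Its log2 fold changes were -0.19 (95% interval -0.51 to 0.13) and 0.25 (95% interval -0.10 to 0.59) for sgCebpa/b/d and sgLkb1, and -0.44 between them (95% interval -0.78 to -0.09, adjusted p = 0.141). In that last comparison 6 of 7 sgCebpa/b/d libraries were below all sgLkb1 libraries. The fourth member of the family, *Timp4*, had at most 2 counts in any library.

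Summed per group of enzymes on the TPM scale, the 4 metalloproteinases had medians of 22.3 TPM (range 17.0 to 28.3) in sgInert, then 30.6 (23.7 to 49.2) for sgCebpa/b/d and 37.2 (31.3 to 41.8) for sgLkb1. In the same order the 3 inhibitors had medians of 185 TPM (146 to 376), 311 (238 to 375) and 299 (245 to 317). The ratio of these 3 inhibitors to these 4 enzymes had medians of 8.25 (6.13 to 14.5), 10.2 (6.32 to 11.04) and 8.33 (5.86 to 8.96), and its ranges overlapped in all 3 groups. Other metalloproteinases are not in the sums, and *Mmp11* alone had medians of 21.4, 43.3 and 48.8 TPM in the same order. The highest sgCebpa/b/d sum, 49.2 TPM in replicate 7, held 23.85 TPM of *Mmp12*. No test was run on these sums.

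Of the plasminogen activator genes, *Plat* (chr8:22757727-22782844, plus strand) had 14, 1, 63, 20, 13, 40 and 17 counts in sgInert replicates 1 to 7, then 27, 81, 34, 48, 165, 51 and 95 in sgCebpa/b/d, and 223, 127, 76, 123 and 141 in sgLkb1. Apart from sgInert replicate 3, at 16.7 CPM, the sgInert libraries (0.18 to 7.20 CPM) were below every sgLkb1 library (11.5 to 25.7 CPM). The log2 fold change was 1.79 in sgLkb1 (SE 0.54, adjusted p = 0.0537) and 1.19 in sgCebpa/b/d (SE 0.51, adjusted p = 0.154). Without sgInert replicate 3 both passed, at 2.41 (adjusted p = 0.00506) and 1.81 (adjusted p = 0.0169). Among the MT libraries, from 2 animals per group, they were 2.92 (adjusted p = 0.00637) and 2.04 (adjusted p = 0.0368). With sex as a term they were 2.82 (adjusted p = 0.00163) and 1.49 (adjusted p = 0.0269). Without the libraries that lack an animal number neither passed, at 1.49 (adjusted p = 0.225) and 0.61 (adjusted p = 0.662). The sgLkb1 difference also passed without sgCebpa/b/d replicate 5 (1.80, adjusted p = 0.04), and with the fibroblast covariate it was 0.59 (adjusted p = 0.754), against 0.08 (adjusted p = 0.973) in sgCebpa/b/d.

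*Plau* (chr14:20836660-20843385, plus strand) had 14, 6, 22, 12, 7, 0 and 0 counts in sgInert, then 5, 27, 9, 7, 5, 5 and 8 for sgCebpa/b/d, and 47, 27, 18, 40 and 30 for sgLkb1. sgLkb1 stood at 2.73 to 5.42 CPM and sgCebpa/b/d at 0.799 to 2.76 CPM, so 6 of 7 sgCebpa/b/d libraries were below all sgLkb1 libraries. That difference was -1.49 on the log2 scale (SE 0.67, adjusted p = 0.24). Against sgInert, whose libraries spanned 0 to 5.83 CPM, the log2 fold change was 1.15 (SE 0.67, adjusted p = 0.387) in sgLkb1 and -0.33 (SE 0.65, adjusted p = 0.815) in sgCebpa/b/d, where the means of log2 CPM had the opposite sign (0.76 against 0.48 in sgInert). *Plau* needed the targeted tumors to pass the filter on low counts, so its p-values are given as a description. *Plaur* (chr7:24462484-24475968, plus strand) ranged from 3.17 to 16.6 CPM in sgInert, 5.31 to 10.9 for sgCebpa/b/d and 7.84 to 18.1 for sgLkb1, with log2 fold changes of 0.12 (95% interval -0.54 to 0.79) and 0.63 (95% interval -0.08 to 1.35) for sgCebpa/b/d and sgLkb1. The groups overlapped.

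*Plaur* is shown because its window (chr7:24462233-24462532, plus strand) was, with those of *Mmp12*, the other of 8 windows of 7 of these genes to hold a match. Capitals mark TGACTCA, an AP-1 match 69 bases before the start, and TTTAGCAA, a C/EBP match 59 bases before it. The windows of *Timp1*, *Timp2* and *Timp3* held none.
Plaur: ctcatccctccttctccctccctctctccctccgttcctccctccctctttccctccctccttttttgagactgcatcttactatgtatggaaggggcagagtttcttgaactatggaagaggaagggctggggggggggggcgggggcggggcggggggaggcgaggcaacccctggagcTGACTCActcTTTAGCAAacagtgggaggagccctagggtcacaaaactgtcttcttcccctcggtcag

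Counted over the 10 genes, 2 were called higher (*Mmp12* and *Mmp14*) and 0 lower in sgCebpa/b/d against sgInert, where 4.73% of all genes tested were called higher and 5.36% lower. Of these calls *Mmp12* entered the table through the libraries in which it is high, so it adds no support to the count, and *Mmp14* is the other call. In sgLkb1 against sgInert 1 was called higher (*Mmp14*) and 1 lower (*Mmp15*), against 2.81% and 2.97% of all genes. *Mmp14* in sgLkb1 was also the 1 gene of the 10 whose libraries did not overlap with sgInert, which 2.15% of all genes did in that direction. Between sgCebpa/b/d and sgLkb1 edgeR called 0 of the 10, against 2.83% higher and 3.12% lower of all genes. There 4 had an unadjusted p under 0.05, DESeq2 called 0, and limma-voom called 1, *Mmp14*. The median log2 fold change of the 10 was 0.75 in sgCebpa/b/d and 1.25 in sgLkb1, beside 0.02 and -0.01 for all genes, and 7 and 9 of the 10 were positive. *Mmp12*, *Mmp2*, *Timp1* and *Plau* are included, though they needed the targeted tumors to pass the filter, so their positive signs add no support. These counts describe a list chosen with the data known. Both comparisons share the sgInert libraries. With an absolute log2 fold change above 1 as a second condition, *Mmp12* in sgCebpa/b/d and *Mmp14* in sgLkb1 remained called.

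Scaling moved the split of calls over the whole table. Of all genes called in sgLkb1, 48.6% were higher under TMM, 78.1% with library sizes alone and 84.5% on log2 of TPM + 0.1, where the median of all genes moved to 0.14 and 0.21. Under those settings *Mmp14* was at 1.54 and 1.62 and *Mmp15* at -0.48 and -0.45. The share called higher in sgCebpa/b/d was 46.9% under TMM and 58.0% with library sizes alone, and between the targeted groups it was 47.5%, 29.0% and, on log2 of TPM + 1, 16.8%. The plot of fold changes under other settings shows how far each estimate moved.

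**Figure D4:**
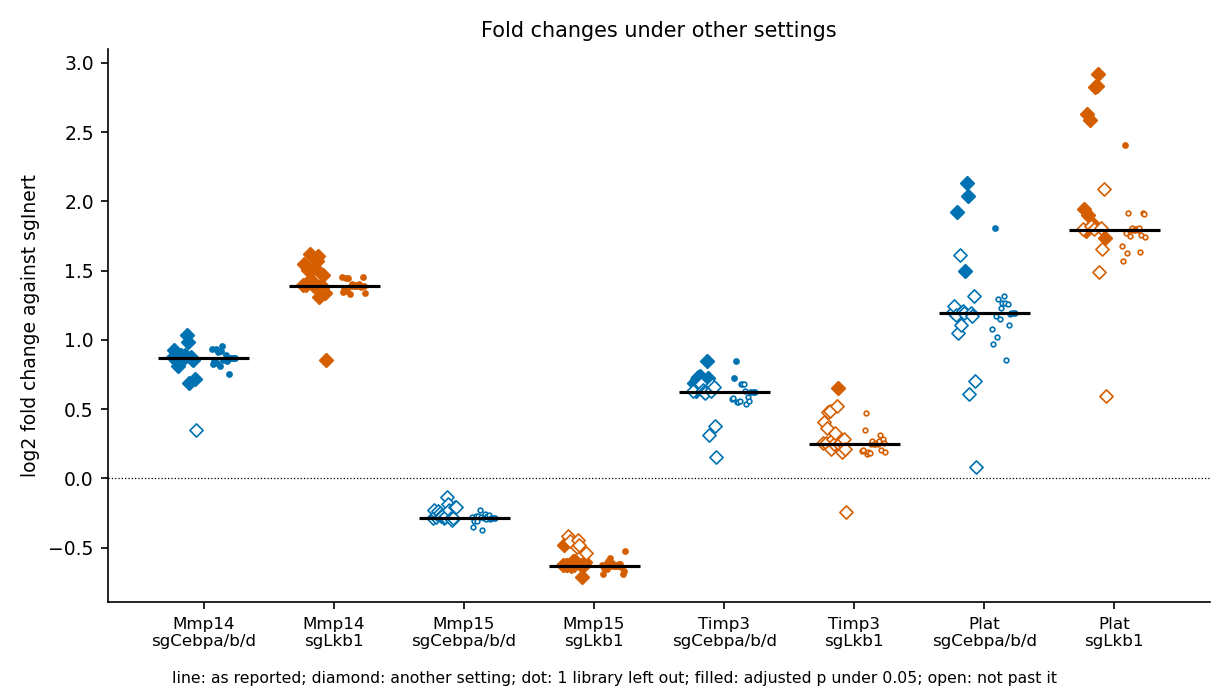
Log2 fold change against sgInert of *Mmp14*, *Mmp15*, *Timp3* and *Plat* as reported (line), under other settings (diamonds) and with 1 library left out (dots), with filled symbols where the adjusted p was under 0.05. *Mmp14* in sgLkb1 is filled throughout (0.85 to 1.62 across settings), and the symbols of *Timp3*, *Plat* and, in sgLkb1, *Mmp15* are mixed.

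Besides *Mmp14*, other members followed the fibroblast marker sum over the 19 libraries. For *Mmp2* Pearson's r was 0.777 (adjusted permutation p = 0.0017) and Spearman's rho 0.672 (adjusted p = 0.0212), for *Plat* 0.764 (adjusted p = 0.0012) and 0.668 (adjusted p = 0.0212), and for *Timp1* 0.667 (adjusted p = 0.0133) and 0.623 (adjusted p = 0.0302). Without the 2 farthest libraries r was 0.643, 0.580 and 0.569, with adjusted p of 0.0545, 0.0948 and 0.0948, so these relations rest in part on those libraries. *Mmp15* had r = -0.564 (adjusted p = 0.0525). Within groups none of these passed adjustment. In sgInert r was 0.582 for *Mmp2*, 0.609 for *Plat*, 0.825 for *Timp1* and 0.412 for *Mmp15*. In sgCebpa/b/d it was 0.288, 0.321, 0.213 and -0.819 in the same order, so that *Mmp15* differed in sign between the groups. None of the 20 relations with the macrophage or endothelial sums, taken over the 14 libraries with an animal number, passed after adjustment. Some libraries share an animal, which makes these p-values too small.

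Most other genes of the protease network were not called. Of 90 genes listed for it (other metalloproteinases, other inhibitors and inducers, the plasminogen system, membrane serine proteases, ADAMs, ADAMTSs, cathepsins and cystatins), 53 were tested. Against sgInert 7 of the 53 were called higher and 6 lower in sgCebpa/b/d, beside 4.73% and 5.36% of all genes. In sgLkb1 4 were called higher and 4 lower, beside 2.81% and 2.97%. Between sgCebpa/b/d and sgLkb1 1 was higher and 4 were lower, beside 2.83% and 3.12%.

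*Adam12*, a sheddase of growth factors linked to stroma and invasion, rose in both groups, from 1.95 to 17.2 CPM in sgInert to 20.1 to 38.7 in sgCebpa/b/d (log2 fold change 2.10, adjusted p = 0.000185) and 19.95 to 26.8 in sgLkb1 (1.74, adjusted p = 0.00374). *Mmp11*, a furin-activated metalloproteinase first known from tumor stroma, rose from 10.1 to 19.4 CPM to 17.9 to 28.6 (0.69, adjusted p = 0.0079) and 21.3 to 40.2 (0.93, adjusted p = 0.00234). *Adam19* (-0.70 and -0.56, adjusted p = 0.000586 and 0.0144), *Adamts1*, which cleaves proteoglycans (-0.93 and -1.03, adjusted p = 0.000865 and 0.00184), and *Ctsc*, the activator of granule serine proteases (-0.81 and -0.61, adjusted p = 0.00192 and 0.0466), fell in both.

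*Tmprss4*, a membrane serine protease, fell in sgCebpa/b/d from 17.3 to 48.2 CPM to 0.67 to 10.5 CPM (log2 fold change -2.92, SE 0.37, adjusted p = 1.3e-05). In sgLkb1 it was at 12.5 to 23.8 CPM (-0.97, adjusted p = 0.142), and the difference between the targeted groups itself passed (-1.95, adjusted p = 0.00247). *Adam10*, a sheddase (0.53, adjusted p = 0.00159), *Bsg*, the inducer of metalloproteinases also called EMMPRIN (0.63, adjusted p = 0.00117), and *Serpine2*, an inhibitor of uPA and thrombin (0.58, adjusted p = 0.00895), rose in sgCebpa/b/d, and *Ctsd* (-0.65, adjusted p = 0.00213) and *S100a10* (-0.55, adjusted p = 0.049), a plasminogen docking protein, fell.

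In sgLkb1 the cathepsin *Ctsl* rose (0.49, adjusted p = 0.0158) and *Adamts9* fell (-0.94, adjusted p = 0.0261). Both differed between the targeted groups, *Ctsl* being lower in sgCebpa/b/d (-0.59, adjusted p = 0.00348) and *Adamts9* higher (1.08, adjusted p = 0.0104). *Eno1*, a glycolytic enzyme that also docks plasminogen at the surface, rose in both groups (0.66, adjusted p = 0.0137, and 1.36, adjusted p = 8.41e-05), and its estimates are uncertain where reads match the near-identical *Eno1b*.

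Genes whose levels followed the members most closely over the 19 libraries, by Pearson's r of log2 CPM, were *Pam*, *Tshz1* and *Tpcn2* for *Mmp14* (0.883, 0.882 and 0.882) and *Npr1*, *Cadps2* and *Deptor* for *Mmp15* (0.836, 0.795 and 0.790). For *Timp3* they were *Mcl1*, *Pfkfb3* and *Vegfa* (0.897, 0.848 and 0.847), for *Timp1* *Ctgf*, *Abcg1* and *Ctsk* (0.888, 0.850 and 0.839), and for *Timp2* *Gm3375*, *Galnt12* and *Serpinb5* (0.849, 0.83 and 0.811). *Plat* was followed by *Togaram2*, *Cdh13* and *Cdh11* (0.911, 0.884 and 0.882), *Plau* by *Ereg* and *Kcnn3* (0.861 and 0.854), *Plaur* by *Pde4b*, *Rhof* and *Basp1* (0.802, 0.802 and 0.797) and *Mmp2* by *Fam174b* and *Gvin1* (0.841 and 0.83). For *Mmp12* they were *Rgs1*, *Itgax* and *Il1b* (0.957, 0.952 and 0.945), pooled over the split of 5 libraries from 14, and *Itgax* is 1 of the 22 macrophage markers. The libraries share groups and in part animals, so these values describe likeness of pattern only.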

How the data were processed

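The authors aligned paired reads of sorted neoplastic cells to mm10 with STAR 2.6.1d and estimated gene levels with RSEM 1.2.30. The deposited expected counts are RSEM's unnormalized estimates, and the deposited TPM values divide them by transcript length and scale them to a fixed library total. The effective lengths given with them were used as offsets in 1 alternative. The authors' other tables hold DESeq2 1.26.0 normalized values, fold changes and p-values, and were not used. Samples were grouped by the virus in the labels.

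Expected counts were rounded, filtered with filterByExpr (minimum count 10, minimum total count 15) and fitted in 1 model of 19 libraries by edgeR 4.0.16 (TMM, glmQLFit, glmQLFTest) in R 4.3.3. Genes with a Benjamini-Hochberg adjusted p under 0.05 over 13986 genes were called, and each adjusted p without another name is from that fit. Intervals are 95% intervals. Log2 CPM used a prior count of 2. limma 3.58.1, DESeq2 1.42.0 and the alternatives named in the closing section were run beside it. On simulated counts for sgLkb1 against sgInert, with 13648 genes tested, the fit called 58.0% of genes changed by a log2 fold change of 1 and 93.0% of those changed by 2.

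Correlations with marker sums (Pearson and Spearman, two-sided permutation with 100000 resamples, SciPy 1.17.1) were planned over 19 libraries. For macrophage and endothelial markers they were run over 14, because 5 libraries formed a separate cluster. The exact tests within groups were added after seeing the data. Of 23 macrophage markers 22 were listed.

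The 10 genes and the gene lists were chosen with earlier results of these data known. Of the other pathway genes, those called in at least 1 comparison were named, at most 3 per list by smallest p, and for likeness the 3 genes with the highest r. An allele of the mice and 2 of the genes named for likeness are not reported here. Coordinates are from GENCODE on GRCm38, and promoter windows from RefSeq (GRCm38.p6), in which 7 of the 10 genes had a window (*Mmp2*, *Plau* and *Plat* did not). Figures were drawn with matplotlib 3.10.9 in Python 3.11.15. A check for a library deposited more than once found none (chi-square per gene between replicates 6.91 to 75.2). P-values measure the spread between libraries, some of which share an animal.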

Additional observations from a re-analysis of the deposited data

Results flagged for a closer look

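In 30 groups of values, the 10 genes in the 3 virus groups, the highest or lowest library was set against its neighbour by Dixon's 95% limit, which chance passes in about 1 group in 20. It was passed in 2. *Mmp12* in sgInert was at -0.97 log2 CPM in replicate 1, a library with 1 count, while the other 6 had 0 counts and stood at -1.63. *Mmp15* in sgCebpa/b/d was at 5.90 log2 CPM in replicate 2, from 583 counts, against 5.55 in the nearest library and a mean of 5.50 in the group.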

How the results depend on the processing

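The call of *Mmp14* in sgLkb1 held under all 18 alternatives (1.31 to 1.62 apart from 0.85 with the fibroblast covariate) and in all 19 fits that left out 1 library. *Mmp14* in sgCebpa/b/d held in 17 of 18 and 19 of 19, and *Mmp15* in sgLkb1 in 12 of 18 and 19 of 19. *Mmp12* in sgCebpa/b/d held in 9 of the 15 alternatives and 16 of the 16 leave-out fits in which it was tested. Leaving out any sgCebpa/b/d library that lacks an animal number took *Mmp12* below the filter on low counts. Those 16 fits thus all kept the sgCebpa/b/d libraries in which it is high, and cannot show whether its call depends on them. Of 528 log2 fold changes under the alternatives 442 kept direction and side of the threshold, and 28 changed sign. Where a count or sign changed, the cause was not tested.

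In sgCebpa/b/d against sgInert the 2 called genes became 5 with DESeq2, 4 each with limma-voom, sex, title series and the MT libraries only, 1 each without the libraries that lack an animal number, with only the 2 groups and with the macrophage covariate, and 0 with the fibroblast covariate, where 548 genes in all were called against 1412. In all genes the count was also 926 with title series and 881 without the libraries that lack a number. In sgLkb1 against sgInert the 2 became 5 with limma-voom and with sex, 4 in the MT libraries, and 1 each without the libraries that lack a number and with the fibroblast covariate, while genes called in all went from 809 to 1258 with sex, 525 without those libraries, 532 with libraries of 1 animal summed and 271 with the fibroblast covariate. Between sgCebpa/b/d and sgLkb1 the 0 became 1 with library sizes alone, limma-voom, either TPM scale, title series and either covariate, and 2 with sex and with only the 2 groups, and genes called in all went from 833 to 455 and 466 without the libraries that lack a number and with animals summed. Leaving out 1 library gave 1 to 4, 2 to 3 and 0 to 1 called genes. Among them, 4 came without sgInert replicate 3, and 1 without sgCebpa/b/d replicate 5, 6 or 7, where *Mmp12* was not tested. Relations with marker sums past adjustment went from 4 to 2 without the 2 farthest libraries.

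Signs reversed for genes that were not called, and for 1 that was called in its alternative. In sgCebpa/b/d against sgInert *Timp2* was 0.12 with title series and 0.17 in the MT libraries. *Plau* was 0.75 with limma-voom, 0.48 on log2 of TPM + 0.1, 1.13 with title series, 1.34 in the MT libraries and 0.16 with the replicate block, and -0.59 to 0.25 with 1 library left out. *Plaur* was -0.19 without the libraries that lack a number, -0.12 with either covariate (-0.119 macrophage, -0.124 fibroblast), and -0.0028 to 0.47 with 1 library left out. In sgLkb1, *Timp1* was -0.47 and *Timp3* -0.24 with the fibroblast covariate. Between sgCebpa/b/d and sgLkb1, *Mmp2* was -0.011 with library sizes alone, -0.15 with limma-voom, -0.11 and -0.31 on the TPM scales, -0.65 with sex, -0.24 in the MT libraries, -0.25 without the libraries that lack a number and -0.20 with the macrophage covariate (-0.047 to 0.20 with 1 library left out). *Mmp12* was -5.21 with sex (adjusted p = 0.0309), -0.28 with the replicate block and -0.96 with the macrophage covariate. *Timp1* was -0.48 with sex, -0.41 in the MT libraries, -0.42 without the libraries that lack a number, -0.14 with the replicate block and -0.30 with the macrophage covariate.

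Same-numbered libraries correlated above 0.1 in 2 of 7, 1 of 5 and 4 of 5 pairs of the 3 comparisons. In the last comparison those 4 pairs share a title type (MT or no number). Replicate 1, at -0.388, sets an MT library against 1 with no number. The check therefore cannot tell a pairing by replicate number from that split. With the replicate block the called genes were 2, 3 and 0, *Mmp12* in sgLkb1 passing as well (adjusted p = 0.0116). With sex as a term, *Mmp2* and *Plat* passed in both comparisons with sgInert, and *Mmp12* in sgLkb1 did (adjusted p = 8.41e-05). All male sgCebpa/b/d libraries lack an animal number, so in that group these fits do not separate sex from that split. Low counts limit *Mmp2*, *Mmp12*, *Timp1* and *Plau*, with medians of 0 to 7 counts in sgInert.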
